A study of Homo sapiens with 4 samples.

Results

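Genes of everyday cell function are used to scale the RNA of one sample against that of another, and 8 of them were followed here in human embryonic stem cells (hESCs) of the naïve and the primed state. They are ACTB, PPIA, YWHAZ, HPRT1, GUSB, TFRC, TBP and IPO8, a set taken from the lists of control genes in common use. They were found by symbol: the transcripts in the deposited tables were matched by identifier to the GENCODE annotation, and 114 of the 242542 matched transcripts carried one of the 8 symbols. The value of a gene is the count of its transcript with the largest mean count, so the 8 members are 8 of 62218 genes. Coordinates given for a member are those of that transcript. All 8 had at least 10 counts in at least 2 libraries and were among the 27633 genes tested.

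The data are 4 Nanopore cDNA libraries, 2 for each state, from total RNA of wild-type H1 cells, a human embryonic stem cell line. Naïve hESCs, labelled FINE, were derived from H1 primed hESCs and kept at low oxygen in a medium with the kinase inhibitors dasatinib, AZD5438, SB590885, PD0325901 and Y-27632, together with LIF, activin A and bFGF. Primed hESCs, labelled TesR, were kept in mTeSR1 at normal oxygen. The states therefore differ in medium, inhibitors and oxygen at once, and 1 line was used. Nothing in the labels says that the 2 libraries of a state came from separate cultures, so p-values measure only the spread between these libraries, which may be technical. In bulk RNA, fewer cells of a type and less RNA per cell cannot be told apart.

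A reference gene serves as a ruler. Its transcript is taken to be present at the same level in every sample, and the amounts of other transcripts are given relative to it. Products of such genes belong to processes that dividing cells share, such as the cytoskeleton, transcription, protein folding, nuclear import, nucleotide recycling and iron uptake. In sequencing data the scale is more often set by all genes together, either by the total number of counts or by the trimmed mean of M-values (TMM), which takes the bulk of the genes to be level between libraries. The libraries can thus be scaled with and without the reference genes, and the ratio of 2 reference genes within a library needs no scale at all.

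The libraries held between 129276054 and 161548901 counts over all transcripts. After 1 transcript was kept per gene, they held between 23542375 and 30978783 counts. The members took between 0.178% and 0.246% of these. TMM factors were 0.779 and 0.824 for naïve hESCs and 1.25 and 1.24 for primed hESCs. The 10 most abundant genes took 10.3% and 12.0% of the gene counts in naïve hESCs against 6.59% and 6.16% in primed hESCs. The ribosomal RNA locus took 3.62% and 3.90% against 1.06% and 1.12%, and mitochondrial genes 1.02% and 1.26% against 2.22% and 2.18%. The part of these differences in the results was not tested. The state labels were checked against markers. All 8 naïve markers were higher in naïve hESCs and all 8 primed markers were lower, and SFRP2, THY1 and FZD7 had no count in either naïve library. Only KLF17 among these 16 markers lost its direction under another scaling. A pseudogene on the other strand overlaps KLF17 and held counts equal to 99.2% of its own, so they cannot be told apart. Another gene in the span held at least 20% as many counts for 2 of the 8 naïve markers and 3 of the 8 primed markers. Of the 11 trophoblast markers 10 were tested and 9 were higher in naïve hESCs, with summed levels of 2178 and 2529 CPM (counts relative to the TMM-scaled library total) against 6.25 and 5.77. VGLL1, XAGE2 and S100P had no count in the primed libraries. The 3 fibroblast markers tested were lower in naïve hESCs, at 2.04 and 1.92 CPM in sum against 56.5 and 58.4. Of 5 pluripotency markers shared by the states, 1 was higher in naïve hESCs, 3 were lower and 1 was not called under TMM. Of 3 endoderm markers tested, 1 was higher, 1 was lower and 1 was not called. On that scale 70.0% of all genes were called. The part of other cell types in the results that follow was not tested.

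The members spanned a wide range of levels. Levels are given per kilobase here, although whether counts of long reads rise with transcript length was not tested. The counts divided were alignments over the whole span of the counted transcript. For ACTB, PPIA, YWHAZ and HPRT1 that is not the canonical transcript. Per kilobase of exonic sequence of the canonical transcript, and scaled by TMM, PPIA stood at 533 ± 53 CPM per kilobase in naïve hESCs and 473 ± 20 in primed hESCs (SD, n = 2 for this and the following levels). PPIA encodes cyclophilin A, a prolyl isomerase that assists protein folding. ACTB, which encodes the cytoskeletal protein beta-actin, followed at 408 ± 20 and 351 ± 41 CPM per kilobase. YWHAZ, which encodes the 14-3-3 zeta adaptor protein that binds phosphorylated partners, was next at 52.9 ± 0.18 in naïve hESCs and 23.0 ± 3.7 in primed hESCs.

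The other members were far below these. HPRT1, the purine salvage enzyme that returns hypoxanthine and guanine to nucleotides, stood at 16.3 ± 1.7 and 12.9 ± 1.3 CPM per kilobase. GUSB, the lysosomal beta-glucuronidase, stood at 7.23 ± 0.58 and 5.02 ± 0.88. TFRC, the transferrin receptor that brings iron into the cell, stood at 5.21 ± 0.20 and 2.60 ± 0.047. Only per kilobase did TFRC lie below TBP in primed hESCs. In CPM not divided by length it was above TBP in both states, and above HPRT1 in naïve hESCs. TBP, the TATA-binding protein that seats the transcription machinery on promoters, had 4.76 ± 0.13 CPM per kilobase in naïve hESCs and 4.14 ± 0.52 in primed hESCs. IPO8, an importin that carries proteins into the nucleus, was lowest at 0.981 ± 0.18 and 1.16 ± 0.074. Neighbours in this order, which depends on dividing by length, did not overlap between libraries, except GUSB and TBP in primed hESCs.

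**Figure D1:**
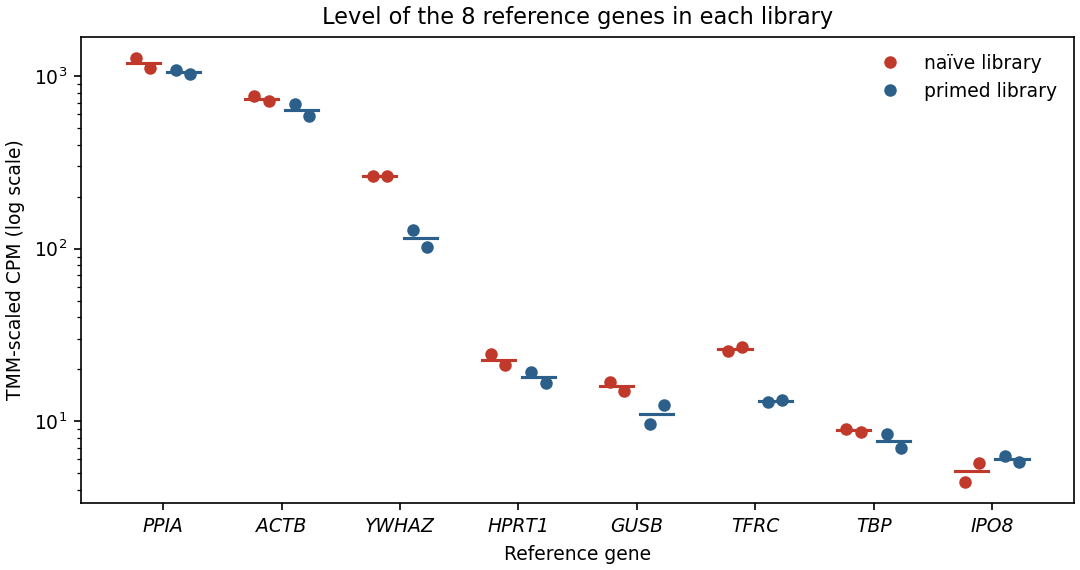
TMM-scaled CPM of each reference gene (log axis, not divided by length) in the 2 naïve and 2 primed libraries, with points for libraries and a line for the mean of each state. YWHAZ and TFRC show the widest gaps between the states, with means of 265 against 115 CPM and 26.1 against 13.0 CPM, and IPO8 alone sits lower in both naïve libraries than in both primed ones.

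With TMM scaling, 4 of the 8 members passed the test between the states, all with more RNA in naïve hESCs. Among all genes tested, 70.0% passed (edgeR's quasi-likelihood test, adjusted p under 0.05 over 27633 genes) and 32.6% were called higher in naïve hESCs. The members' share was below this background, and with 8 genes the difference was not tested. YWHAZ and TFRC showed the largest ratios of the 8, GUSB and HPRT1 smaller ones. ACTB, TBP, PPIA and IPO8 did not pass. The libraries of the states did not overlap for any of the 8 on this scale, as for 84.4% of all genes. With a log2 ratio beyond 1 also required, YWHAZ and TFRC remained, against 47.1% of all genes. The median log2 ratio of naïve over primed was 0.28 over the 8 members and -0.08 over all genes.

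YWHAZ (ENSG00000164924, on chromosome 8) had 6100 and 6780 counts in naïve hESCs and 3779 and 3127 in primed hESCs. Scaled by TMM these were 264 and 266 CPM against 128 and 102 CPM. Both naïve libraries were thus above both primed ones, and the naïve libraries nearly coincided. The log2 ratio was 1.20 with a standard error of 0.15 (adjusted p = 1.07e-09, edgeR), or 2.30-fold.

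TFRC (ENSG00000072274, chromosome 3, 196049284 to 196082090 on GRCh38, minus strand) had 587 and 685 counts in naïve hESCs and 379 and 405 in primed hESCs. These were 25.4 and 26.8 CPM against 12.9 and 13.2 CPM. The replicates of each state lay close together, and the gap between the states was far wider than either replicate gap. The log2 ratio was 1.00 with a standard error of 0.16 (adjusted p = 2.91e-07, edgeR). YWHAZ and TFRC passed the test in each fit that left out 1 library, and in those fits the log2 ratio ran from 0.88 to 1.27 for YWHAZ and from 0.82 to 1.10 for TFRC.

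GUSB (ENSG00000169919, chromosome 7, 65960684 to 65982213, minus strand) had 388 and 383 counts in naïve hESCs against 285 and 381 in primed hESCs. Scaled by TMM these were 16.8 and 15.0 CPM against 9.67 and 12.4 CPM. The primed libraries differed from each other more than the naïve ones did, and the second primed library held nearly as many raw counts as the naïve libraries. The log2 ratio was 0.52 with a standard error of 0.17 (adjusted p = 0.00512, edgeR). Without the first primed library the ratio was 0.19 and did not pass.

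HPRT1 (ENSG00000165704, on chromosome X) had 564 and 537 counts in naïve hESCs and 567 and 510 in primed hESCs. These are counts of HPRT1-203 (134473374 to 134520513, plus strand), the transcript with the largest mean. The canonical HPRT1-201 (134460165 to 134500668) had 567 and 554 counts against 550 and 499. Raw counts overlapped between the states for HPRT1-203 but not for HPRT1-201. After TMM scaling the levels of HPRT1-203 were 24.4 and 21.0 CPM against 19.2 and 16.6 CPM. The log2 ratio of 0.34 had a standard error of 0.16 and lay at the edge of the threshold (adjusted p = 0.0490, edgeR). It did not pass without the first naïve library (0.29), the first primed library (0.28) or the second primed library (0.07).

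ACTB (ENSG00000075624, chromosome 7, 5527152 to 5563902, minus strand) had 17671 and 18228 counts in naïve hESCs and 20297 and 17923 in primed hESCs. PPIA (ENSG00000196262, chromosome 7, 44796681 to 44824564, plus strand) had 29457 and 28308 counts against 32091 and 31462. These spans belong to the counted transcripts ACTB-220 and PPIA-205. The canonical ACTB-217 and PPIA-204 are shorter, at 5527148 to 5530601 and 44796681 to 44803117. On the TMM scale the counts gave 765 and 714 against 689 and 584 CPM for ACTB. For PPIA they gave 1276 and 1109 against 1089 and 1025 CPM. Both genes were slightly higher in the naïve libraries after scaling, although PPIA had fewer raw counts there. The log2 ratios were 0.22 for ACTB and 0.17 for PPIA, each with a standard error of 0.14 (adjusted p = 0.167 and 0.272, edgeR). Their 95% confidence intervals ran from -0.07 to 0.50 and from -0.11 to 0.46.

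TBP (ENSG00000112592, chromosome 6, 170554369 to 170572859, plus strand) had 208 and 221 counts in naïve hESCs and 247 and 215 in primed hESCs, or 9.01 and 8.66 CPM against 8.38 and 7.01 CPM. The log2 ratio was 0.20 with a standard error of 0.18 (adjusted p = 0.326, edgeR) and an interval from -0.16 to 0.56. In the fit without the second primed library, the log2 ratios of ACTB, PPIA and TBP were -0.06, -0.04 and -0.09. That fit set the count filter and the TMM factors anew. On the scale of all 4 libraries, both naïve libraries were above the first primed one for each of these genes.

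IPO8 (ENSG00000133704, chromosome 12, 30628988 to 30695869, minus strand) was the only member with a ratio below 0 on the TMM scale. It had 103 and 147 counts in naïve hESCs and 186 and 177 in primed hESCs, or 4.46 and 5.76 CPM against 6.31 and 5.77 CPM. The second naïve library lay next to the second primed one. The log2 ratio of -0.24 had a standard error of 0.20 and an interval from -0.64 to 0.17 (adjusted p = 0.295, edgeR). Without the first naïve library it was -0.01. IPO8 had the fewest counts of the 8, and its standard error was the largest.

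Under TMM, most members had small ratios beside other genes above a minimum depth, which were not matched in depth to each member. Among the 14094 genes that averaged 100 counts or more, the size of the log2 ratio was smaller than that of PPIA in 13.4% of genes, of TBP in 15.2%, of ACTB in 16.4% and of IPO8 in 17.9%. It was smaller than that of HPRT1 in 25.4%, of GUSB in 38.3%, of TFRC in 64.3% and of YWHAZ in 71.8%. TFRC and YWHAZ lay past the middle of these genes on this scale. With the members as scale the shares were 49.0% for TFRC, 61.0% for YWHAZ, 54.8% for IPO8 and 8.46% for GUSB. The replicates of the members differed about as much as those of other genes. The median difference between replicates on the log2 scale was 0.13 for the members and 0.17 for the 14094 genes in naïve hESCs, and 0.23 and 0.16 in primed hESCs.

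The direction of most members depended on the scale. Library size is the sum of the gene counts of a library, and mapped reads is the number of aligned reads that the study lists per library. Relative to TMM, these scales shifted the log2 ratios of the members by about -0.64 and -0.73, and those of genes without counts in one state by less. By library size, ACTB, TBP, PPIA and IPO8 were called lower in naïve hESCs and YWHAZ and TFRC higher. Of all genes 72.5% were then called and 56.2% were called lower. By mapped reads, HPRT1 was called lower as well, and YWHAZ was the only member still called higher. Here 74.3% of all genes were called and 59.5% were called lower. Of the called genes, 46.6% were higher in naïve hESCs under TMM, against 22.5% by library size, 19.9% by mapped reads and 24.7% by the sum of all transcript counts.

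ACTB illustrates the size of this shift. Its naïve level was 1.16 times the primed level by TMM, 0.746 times by library size and 0.700 times by mapped reads. The log2 ratios were 0.22, -0.42 and -0.51, and the last 2 passed the test (adjusted p = 0.0027 and 0.00046, edgeR). IPO8 had log2 ratios of -0.87 by library size and -0.96 by mapped reads, and both passed. HPRT1, called higher under TMM, had a log2 ratio of -0.39 by mapped reads and was called lower there (adjusted p = 0.0250, edgeR). GUSB had ratios of -0.11 and -0.20 on these scales and did not pass on either. YWHAZ was the single member with 1 direction and a call under each scaling that was run, with a log2 ratio from 0.47 by mapped reads to 1.25 by the size factors of DESeq2. TFRC kept its direction, but by mapped reads its log2 ratio of 0.27 had an interval from -0.04 to 0.59 and did not pass.

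The medians moved with the scale, as they must when nearly every gene is shifted alike. The median of all genes was -0.08 under TMM, -0.72 by library size and -0.81 by mapped reads. The median of the 8 members was 0.28, -0.36 and -0.45. DESeq2, whose size factors differed from TMM by 0.05 on the log2 scale, called GUSB, YWHAZ and TFRC, and 58.7% of all genes.

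**Figure D2:**
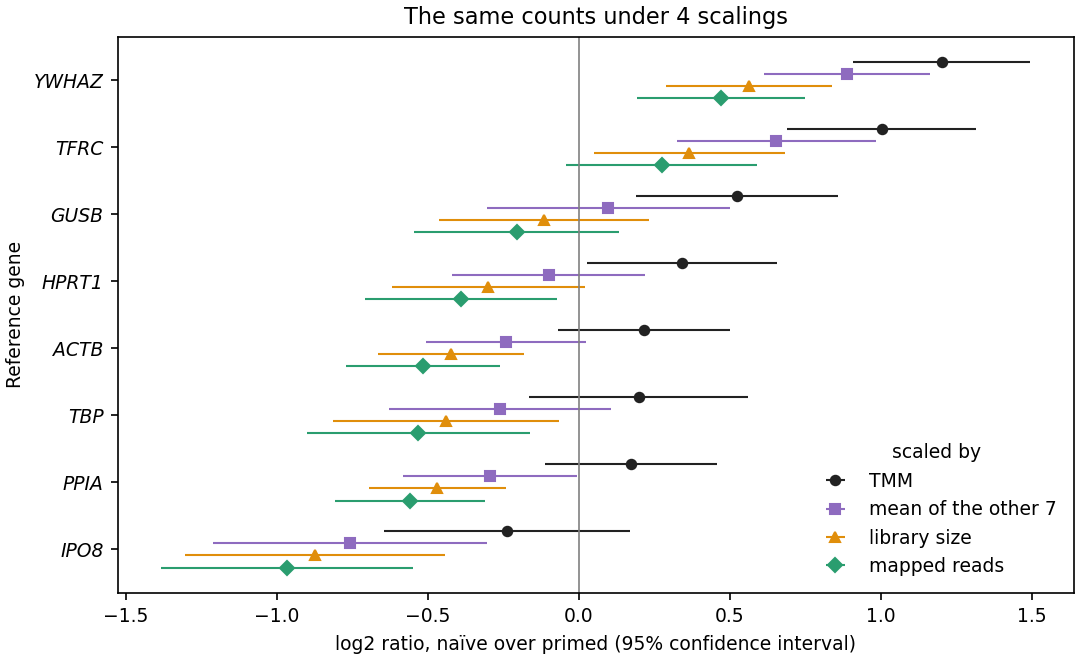
Log2 ratio of naïve over primed for each reference gene under 4 scalings of the same counts, with 95% confidence intervals from edgeR. For ACTB, TBP, PPIA and HPRT1 the point lies above 0 under TMM and below 0 under the other 3 scalings, while YWHAZ lies above 0 under all 4, between 0.47 and 1.20.

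The members themselves can serve as the scale. The geometric mean of the 8 counts was 1311 and 1414 in naïve hESCs and 1274 and 1231 in primed hESCs. This scale lay between TMM and library size at -0.43 from TMM on the log2 scale. Of all genes 69.3% were called, and 29.4% of the called genes were higher in naïve hESCs. Each member was then set against the mean of the other 7. YWHAZ (log2 ratio 0.89) and TFRC (0.66) were called higher in naïve hESCs and IPO8 (-0.76) lower, while the other 5 members did not pass. HPRT1 and GUSB were nearest to 0, at -0.10 and 0.10. YWHAZ and TFRC carried much of this scale. Without these 2 genes, a choice made after their values were seen, the geometric mean was 1160 and 1229 in naïve hESCs against 1300 and 1269 in primed hESCs, which turned a log2 difference of 0.12 in raw counts into -0.11.

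The ratio of 2 members within a library does not depend on any scale. In 21 of the 28 pairs the ratios of the naïve libraries lay apart from those of the primed libraries. On the TMM scale the libraries of the states lay apart for 84.4% of single genes. That is a different measure, and pairs of other genes were not examined. In 17 of the 21 pairs the difference between the states exceeded the wider gap between replicates. A permutation of 2 against 2 libraries cannot give an exact two-sided p below 0.333, so no pair was tested. ACTB and TBP formed the steadiest pair in these libraries. It is the smallest difference of the 28, and TBP had only between 208 and 247 counts per library. Whether the pair would stay as steady in other libraries was not tested. The log2 ratio of ACTB to TBP was 6.41 and 6.37 in naïve hESCs and 6.36 and 6.38 in primed hESCs, a difference of 0.02 between the means. ACTB to PPIA and TBP to PPIA differed by 0.05 and 0.03, less than their replicates did, and the libraries of the states overlapped.

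YWHAZ and IPO8 stood at the opposite ends. The log2 ratio of YWHAZ to IPO8 was 5.71 ± 0.25 in naïve hESCs and 4.24 ± 0.14 in primed hESCs (SD, n = 2), a difference of 1.46. The ratio of TFRC to IPO8 differed by 1.25. All 12 pairs of YWHAZ or TFRC with one of the other 6 members lay apart between the states, by 0.47 to 1.46, and YWHAZ against TFRC differed by 0.21 and overlapped. Of the 15 pairs among the other 6 members 9 lay apart, and 6 of these exceeded the replicate gap. The mean SD of a member's log2 ratios to the other 7 was lowest for ACTB at 0.27, HPRT1 at 0.27 and TBP at 0.27, followed by PPIA at 0.29. It was 0.36 for GUSB, 0.44 for TFRC, 0.51 for IPO8 and 0.55 for YWHAZ. When the least steady member was removed at each step, YWHAZ left first, then TFRC, IPO8, GUSB, HPRT1 and PPIA. ACTB and TBP remained with an SD of 0.022, in the same libraries that set the order.

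**Figure D3:**
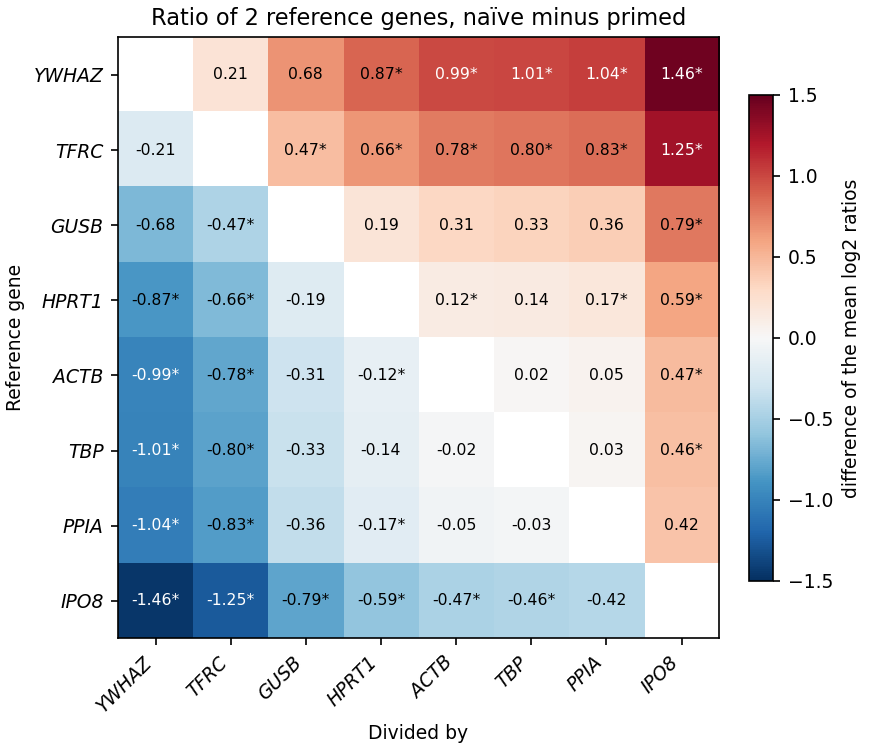
Difference between the states (naïve minus primed) in the mean log2 ratio of each row gene to each column gene, with an asterisk where it exceeds the wider replicate gap. The block of ACTB, TBP and PPIA is near 0, at 0.02 to 0.05 in size, and the values of YWHAZ against the others reach 1.46.

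Several members have processed pseudogenes, copies of their spliced transcript elsewhere in the genome, and the counting accepted every place where a read aligned. PPIA was the extreme case. The 89 genes named as PPIA pseudogenes held 118923 and 113897 counts in naïve hESCs and 128452 and 125472 in primed hESCs, about 4 counts for each count on PPIA. PPIAP22 on chromosome 21 alone held 28932, 27721, 30961 and 30295 counts, between 96.3% and 98.2% of those on PPIA, and its sequence was 99.6% identical to the PPIA coding sequence. PPIAP11 on chromosome 5 and PPIAP29 on chromosome 6 held between 94.98% and 97.24%. PPIA and these copies cannot be told apart in the counts, and the log2 ratio was 0.19 for the summed pseudogenes and 0.17 for PPIA itself.

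The start of the coding sequence is shown for PPIA and these 3 pseudogenes because it shows how closely the copies follow the gene. The sequences are the first 120 coding bases of PPIA and the stretches aligned to them on GRCh38, 5′ to 3′ on the strand of each gene, with capitals for bases that differ from or are added to PPIA.
PPIA: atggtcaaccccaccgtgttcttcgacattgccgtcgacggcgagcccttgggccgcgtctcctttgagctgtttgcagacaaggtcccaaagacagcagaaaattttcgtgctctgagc
PPIAP22: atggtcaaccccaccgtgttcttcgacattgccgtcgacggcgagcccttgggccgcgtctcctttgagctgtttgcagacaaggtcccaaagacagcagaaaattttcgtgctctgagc
PPIAP11: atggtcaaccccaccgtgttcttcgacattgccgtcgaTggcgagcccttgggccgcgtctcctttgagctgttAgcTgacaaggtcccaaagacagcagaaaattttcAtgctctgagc
PPIAP29: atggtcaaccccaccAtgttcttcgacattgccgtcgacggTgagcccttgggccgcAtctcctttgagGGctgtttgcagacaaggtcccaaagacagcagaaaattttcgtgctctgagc
PPIAP22 has no capital in this stretch, PPIAP11 has 4 and PPIAP29 has 5.

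YWHAZ and GUSB also have copies with many counts. The 9 YWHAZ pseudogenes held 10131 and 11201 counts in naïve hESCs and 6490 and 5010 in primed hESCs, between 1.60 and 1.72 for each count on YWHAZ. YWHAZP2 on chromosome 2 held the most, with 4900, 5413, 3091 and 2385. Their sum followed YWHAZ closely, with a log2 ratio of 1.19 against 1.20. The 21 genes named as GUSB pseudogenes went the other way, with 2785 and 2940 counts in naïve hESCs and 10445 and 15385 in primed hESCs, a log2 ratio of -1.86. Per count on GUSB this came to 7.18 and 7.68 in naïve hESCs and to 36.6 and 40.4 in primed hESCs. GUSBP1 and GUSBP15 on chromosome 5 were among the largest. They are annotated as a long noncoding RNA and an unprocessed pseudogene, not as copies of a spliced transcript. Identity to the spliced coding sequence is therefore not given for them. How far counts on GUSB came from these loci was not tested.

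The other members shared few counts. The 12 ACTB pseudogenes held 71 and 68 counts in naïve hESCs and 106 and 102 in primed hESCs, under 1% of ACTB in every library. IPO8P1 held 20 and 26 counts against 28 and 30, between 15.1% and 19.4% of IPO8, and the 3 HPRT1 pseudogenes held 1 count in all. None was named for TBP or TFRC. Other genes within the spans of the members added little, at most 1.27% of the member's counts, for RNU7-18P inside TFRC.

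**Figure D4:**
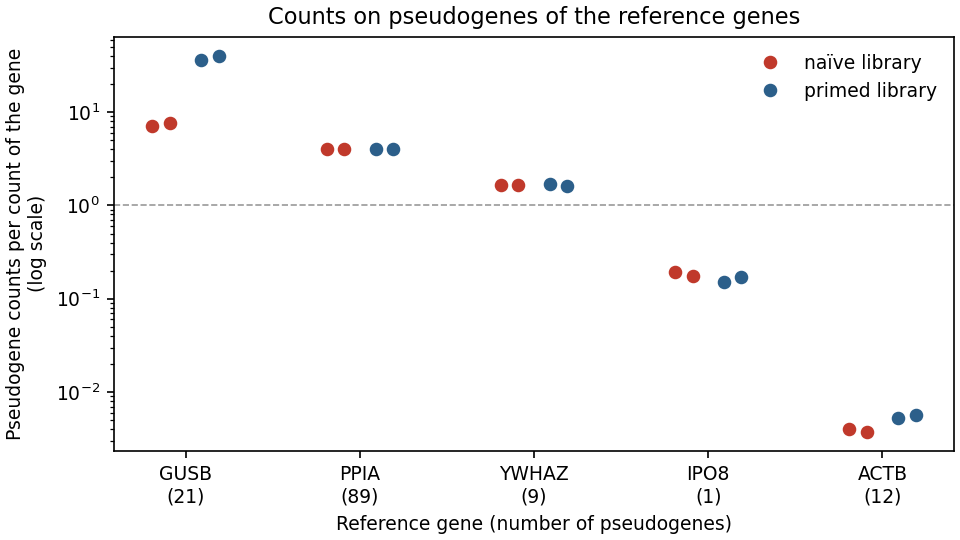
Counts on the pseudogenes of 5 reference genes per count on the gene itself (log axis), for the 2 naïve and 2 primed libraries, with the number of pseudogenes in brackets and a dashed line at 1. PPIA and YWHAZ have the same value in both states, near 4.0 and 1.7, whereas GUSB has 7.18 and 7.68 in naïve libraries and 36.6 and 40.4 in primed ones.

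GAPDH, the glycolytic enzyme that served as internal control for the RT-qPCR of the study, is not among the 8 but is the natural comparison. It had 62568 and 57059 counts in naïve hESCs and 68305 and 64844 in primed hESCs. Like ACTB and PPIA, it had a small positive log2 ratio under TMM, 0.16 with a standard error of 0.14, that did not pass (adjusted p = 0.331, edgeR). It was called lower in naïve hESCs by library size (-0.48) and by mapped reads (-0.57). An unnamed gene on the other strand overlaps GAPDH and held counts equal to 90.8% of its own. Its 65 pseudogenes held 39709 and 36742 counts against 42698 and 40417. The study's primer pair is shown because it set the scale of that RT-qPCR.
GAPDH forward: tgacgctggggctggcattg
GAPDH reverse: ggctggtggtccaggggtct
Both primers matched 9 of 11 GAPDH transcripts in full, with a product of 143 bases, and none of the 68 pseudogene transcripts carried both sites.

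Among 36 other genes used as references, 24 were called higher in naïve hESCs under TMM and 2 lower, with a median log2 ratio of 0.56, against 32.6% of all genes called higher. By library size, which shifts nearly all genes alike, 8 were higher and 12 lower with a median of -0.08, against 56.2% of all genes called lower. By mapped reads 4 were higher and 15 lower, against 59.5% of all genes called lower. Called higher were 4512 of all 27633 genes by library size and 4087 by mapped reads. RPS18, a ribosomal protein gene, had 96085 and 87453 counts in naïve hESCs against 34590 and 38590 and a log2 ratio of 1.64 (adjusted p = 3.5e-13, edgeR). EMC7, of the membrane protein complex of the endoplasmic reticulum, had a ratio of 1.37. Both were called higher on each of the 4 scales of the plot of scalings. POLR2A, the large subunit of RNA polymerase II, was lower at -0.46. C1orf43 had a log2 ratio of -0.31 and did not pass under TMM. Its span overlaps UBAP2L, which had more counts.

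The genes of each member's own family showed how far a reference gene stood for its group. Lists were counted under TMM, where 70.0% of all genes were called. Counts by library size and by mapped reads stand against 56.2% and 59.5% of all genes called lower there, and shares near these say nothing particular about a family. Of the 27633 genes, 4512 were called higher by library size and 4087 by mapped reads. Under TMM 9009 were called higher and 10328 lower. Among the other actins tested, 3 of 5 were lower in naïve hESCs and 1 was higher, while ACTB did not pass. ACTG1, the other cytoplasmic actin, had a log2 ratio of -0.29 that did not pass under TMM and was lower under the other 3 scalings. ACTC1, of cardiac muscle, was lower at -2.12 and ACTG2, of smooth muscle, higher at 3.32. ACTC1 overlaps GJD2-DT on the other strand, which held counts equal to 103% of its own. Of 17 subunits and relatives of TFIID, the complex that TBP belongs to, 6 were higher, 2 were lower and 9 did not pass, with a median of 0.20, but by library size 3 were higher and 10 lower. TAF13 (2.57) and TAF5 (1.41) were higher and TAF9B (-1.07) lower. ATP5MK, on the other strand, overlaps TAF5 and held counts equal to 104% of those of TAF5, so the pair cannot be told apart.

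Purine enzymes and lysosomal glycosidases differed from each other. Of 16 other purine enzymes 4 were higher, 6 lower and 6 not called under TMM, with a median of -0.11, and by mapped reads 13 were lower. PNP, which releases purine bases, was higher at 1.71, and PAICS (-0.41) and IMPDH1 (-0.91), of purine synthesis, were lower. Of 12 other lysosomal glycosidases 9 were higher and 1 lower, with a median of 0.87, and 6 remained higher by library size and by mapped reads. FUCA1, the fucosidase, was higher at 2.05 and NAGLU lower at -0.94. An unnamed gene that overlaps NAGLU on the same strand had 481 and 535 counts in naïve hESCs against 107 and 131, more than NAGLU itself. GLA, the alpha-galactosidase, had 29172 and 30425 counts against 14597 and 18761, but its span overlaps RPL36A-HNRNPH2 on the other strand and the counts of the pair cannot be separated. PNP overlaps an unnamed antisense gene in the same way.

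Of 14 other cyclophilins 6 were higher and 1 lower, and by library size 2 were higher and 7 lower. PPIC was higher at 1.43 and NKTR lower at -0.36, while PPIB, the cyclophilin of the endoplasmic reticulum, was higher under TMM at 0.76 and did not pass by library size or mapped reads. These 3 overlap SNX24, SEC22C and SNX22 on the other strand, which held counts equal to 164%, 215% and 99.4% of theirs. The ratios therefore cannot be assigned to the cyclophilins alone. Of 6 other 14-3-3 genes 3 were higher under TMM and none lower, against 1 higher and 3 lower by library size. SFN, 14-3-3 sigma, was higher at 2.84 on the TMM scale and on the other 3 scales. YWHAE had a log2 ratio of 0.55 and passed under TMM alone.

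Iron genes and importins completed the set. Of 10 other genes of iron uptake and storage 5 were higher and 3 lower, with a median of 0.27, and by library size 4 were higher and 5 lower. SLC40A1, the iron exporter ferroportin, had 1633 and 1787 counts in naïve hESCs and 15 and 8 in primed hESCs, a log2 ratio of 7.51. FTL, the ferritin light chain, was higher at 1.09 and STEAP3, an endosomal iron reductase, lower at -0.67. Both FTL and SLC40A1 were higher on the other 3 scales too. Of 12 other importin-beta proteins 6 were higher and 1 lower, but by mapped reads none was higher and 7 were lower. TNPO1 (0.99) and IPO11 (0.84) were higher under TMM and not called by mapped reads, and IPO9 was lower at -1.35 on the TMM scale and lower on the others. IPO11 overlaps an unnamed gene of the same strand with as many counts. STEAP3 overlaps STEAP3-AS1 and IPO9 overlaps IPO9-AS1, at 86.5% and 78.6% of their counts. Over all families such overlaps were common. Another gene in the span held at least 20% as many counts for 7 of 12 glycosidases, 8 of 14 cyclophilins and 16 of the 36 other reference genes.

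**Figure D5:**
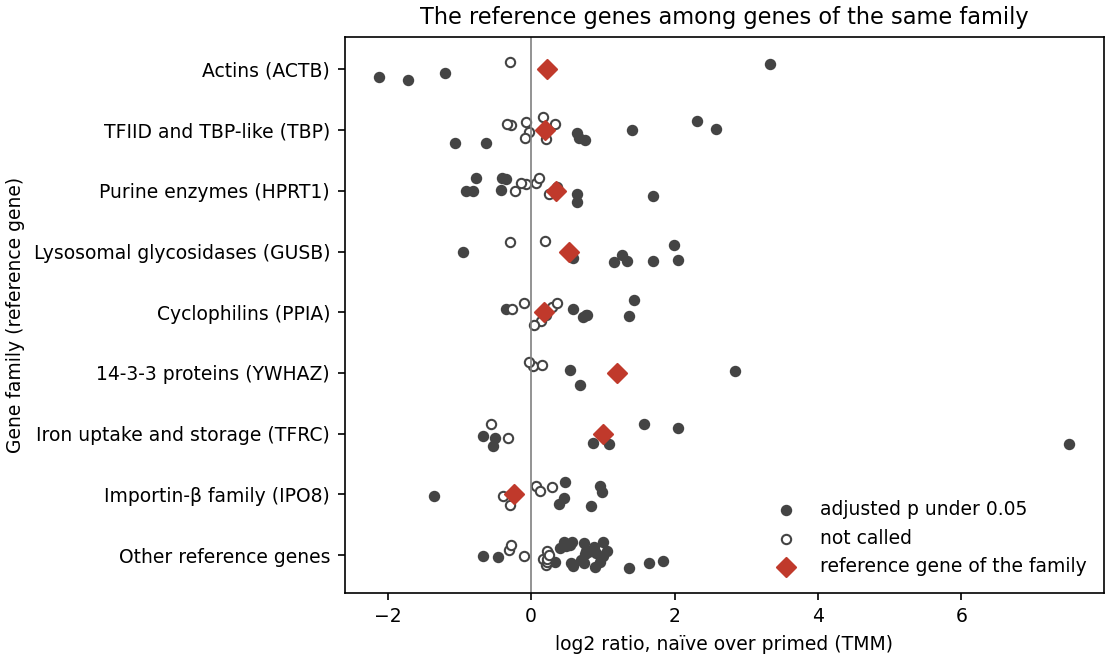
TMM-based log2 ratio of naïve over primed for the genes of each family, with filled points for genes that passed the test, open points for genes that did not, and a diamond for the reference gene. ACTB lies at 0.22 between actins at -2.12 and 3.32, and the 36 other reference genes have their median at 0.56.

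Some genes followed the mean of the members more closely than any member did. Among 4032 protein-coding genes on no list that averaged 500 counts or more, the SD over the 4 libraries of the log2 ratio to the geometric mean of the members was smallest for TJP1 at 0.0060, IDH3B at 0.015, VBP1 at 0.017, KARS1 at 0.022 and RCC1 at 0.024. They are the 5 smallest values of the 4032, over 4 libraries. Under TMM all 5 were called higher in naïve hESCs, with log2 ratios from 0.42 to 0.46 (adjusted p from 0.00426 to 0.0107, edgeR). TJP1, of tight junctions, had 3986 and 4321 counts in naïve hESCs and 3852 and 3744 in primed hESCs. HMGN2P5 overlaps TJP1 and SNHG3 overlaps RCC1, and they held counts equal to 73.9% and 79.9% of theirs. HPRT1 was nearest among the members at 0.099, and 6.77% of the candidates were nearer. For YWHAZ the SD was 0.46, and 65.2% of the candidates had a smaller one.

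No isoform of the members was called for a change in usage. Of the 114 transcripts 113 were tested, with 91 distinct patterns of counts, since isoforms share alignments. None passed both an adjusted p under 0.05 and a difference in isoform fraction beyond 0.1, a rule that 0.556% of 159577 isoforms met. In edgeR, 1 of the 113 had an unadjusted p under 0.05, and it also passed on the adjusted p. TBP-205, a short transcript at the 3′ end of TBP (chromosome 6, 170569612 to 170572853), had 100 and 97 counts in naïve hESCs and 196 and 165 in primed hESCs. Its share of the length-divided counts over the TBP isoforms was 10.6% ± 0.46 in naïve hESCs and 17.3% ± 0.38 in primed hESCs (SD, n = 2). The adjusted p was 0.0240 (edgeR). Alignments in its span were also counted for longer TBP isoforms, so this share is not the part of TBP RNA made up by TBP-205. The whole-length TBP-202 had 208 and 221 counts against 247 and 215. The fractions of the ACTB, PPIA and YWHAZ isoforms differed by at most 0.0016 between the states. Most of these isoforms shared nearly all their alignments, which ties the fractions to exonic length. The small differences therefore cannot show whether usage was steady.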

How the data were processed

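Long reads of 4 cDNA libraries were aligned to GRCh38 with minimap2 and counted with featureCounts 2.0.0 on the Ensembl 105 annotation. The deposited values are raw counts per transcript over its whole span, introns included, and per the file headers the authors counted an alignment for every transcript that it overlapped (-O) and at every place where it aligned (-M), with no strand setting. Counts are thus alignments, not molecules, and overlapping genes and near-identical copies share them. Intervals cover counting error and the spread between 2 libraries per state.

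Of 244825 transcripts, 99.1% were matched to GENCODE release 44, and the 2283 without a match held 1.00% of the counts. A gene's count was that of its transcript with the largest mean count. A gene needed 10 or more counts in 2 or more libraries and was then tested with edgeR 4.0.16 in R 4.3.3 (quasi-likelihood, two-sided, Benjamini-Hochberg over 27633 genes). CPM are TMM-scaled. Isoform usage was tested with diffSpliceDGE on TMM-scaled counts. DESeq2 1.42.0, other scalings, filters, gene values, the replicate number as a block and libraries left out were alternatives. The tests were run on simulated counts drawn independently for each gene or isoform. Real counts share alignments, so the simulation does not cover overlapping genes or isoforms. Mapped reads per library were read from the study's list. Replicates were distinct libraries, with a chi-square per degree of freedom of 14.4 and 8.82 over genes.

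The 8 members and all gene lists were chosen with earlier results of these data known. The genes named are the members, GAPDH, the 3 highest and 3 lowest of the other reference genes, in each family the most abundant and the highest and lowest called, the largest pseudogenes, and the 5 genes nearest to the mean of the members. Of the other reference genes that this rule names, 2 are not reported here. KLF17, overlapping genes, the further PPIA, GUSB and YWHAZ copies and TBP-205 were named after their values were seen.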

Additional observations from a re-analysis of the deposited data

How the results depend on the processing

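With all 4 libraries and the same threshold, 19337 of 27633 genes were called. With at least 50 counts required these were 13803 of 18953, and with no count filter 21140 of 50139. The direction of the members depended on the scale. The median log2 ratio of the members, 0.28 under TMM, was -0.30 by the sum of all transcript counts, -0.36 by library size, -0.45 by mapped reads and -0.17 with the members as scale. In the same order of scalings the log2 ratio was -0.36, -0.42, -0.51 and -0.24 for ACTB, -0.37, -0.44, -0.53 and -0.26 for TBP, -0.23, -0.30, -0.39 and -0.10 for HPRT1, and -0.40, -0.47, -0.56 and -0.29 for PPIA. For GUSB it was -0.051, -0.11 and -0.20 by the first 3. These shifts follow from the scale itself, which moves the members nearly alike. Over the alternatives for single members, 83 values kept direction and call and 22 reversed, some of them with a call as lower, as for ACTB, PPIA and TBP by library size and by mapped reads. With the direction kept, 11 lost the call and 4 gained it, the last all for IPO8. HPRT1 also lost its call with DESeq2, TMM on protein-coding genes, either other count filter and summed transcripts, and the cause was not tested.

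With 1 library left out, the count filter and the TMM factors were set anew. The other library of that state was taken to vary like those of the other state. Counts of genes called are not given for these fits, since the number of genes tested changed too, from 23727 to 26318. The median of the members ran from 0.019 to 0.42. The ratio of ACTB ran from -0.063 to 0.33, that of TBP from -0.090 to 0.29 and that of PPIA from -0.035 to 0.33. A log2 ratio beyond 1 left 2 members and 6 other reference genes, and without the threshold on isoform fractions 1 member isoform was called.

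The replicate numbers are not said to pair the libraries, and with 2 libraries per state the correlation of the replicate differences was 0.098. With a replicate block, 4 of 8 members and 19689 of 27633 genes were called. IPO8 and TBP, with the fewest counts, had the widest intervals, so differences within them were not detectable at this depth.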
